A study of Mus musculus with 6 samples.

Results

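Atp1b1, Atp1b2 and Atp1b3 encode 3 beta subunits of the sodium pump, and their counts were followed through every cell type of the mouse olfactory bulb. They were chosen by name, to cover forms of the subunit in neurons, glia and vessels, and make up 3 of the 18560 genes counted. The rule names the genes and uses no measured value, although earlier results of these data were known when the genes were chosen. The sodium pump, Na,K-ATPase, moves sodium out of the cell and potassium in at the cost of ATP, and so maintains the ion gradients on which action potentials and many transporters depend. Its catalytic alpha subunit reaches the membrane only in partnership with a beta subunit, a glycoprotein with a single membrane span. Small FXYD proteins adjust the activity of the pump.

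Single cells came from olfactory bulbs of C57BL/6NJ mice, aged 14 weeks, in 6 libraries of 3 groups with 2 libraries each. Control mice had no manipulation, and naris occluded mice had 1 nostril plugged for 6 weeks. Trained mice had 6 weeks of olfactory discrimination training, for which the study's methods describe water deprived animals working for a water reward. By that description, trained mice differed from the others in water deprivation as well as in odor training. Every library pooled 3 mice, with males in replicate 1 and females in replicate 2 of each group. Part of the study's text describes the control tissue as the open side of occluded mice, so whether controls shared animals with the naris occluded libraries was not settled here. Transcripts were counted as unique molecular identifiers (UMIs), 1 per captured molecule, from the 3′ end, so a count is not scaled by the length of the gene. The libraries held 6705 to 10570 cells and 11841160 to 17065083 UMIs, with a median of 1028 to 1723.5 UMIs per cell, the lowest in trained replicate 1. Of 49931 barcode sequences, 1461 occurred in more than 1 library. For each library, the counts of all cells within a cluster were added up, in 40 clusters, 18 neuronal and 22 nonneuronal, and expressed per 1000000 UMIs (CPM). The clusters were made from the expression of all genes, these 3 included, so their levels across clusters are given as a description, with the SD over all 6 libraries, whatever their group, and without a test.

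The names of the clusters held for most marker genes. Mag and Mog, genes of myelin, were highest in MyOligo, Aqp4 and Slc1a3 in the astrocyte cluster Astro1, P2ry12 in the microglial cluster MicroG2 and Vtn in the mural cluster Mural2. Among the exceptions, Sox10, listed for olfactory ensheathing cells, was highest in the oligodendrocyte precursor cluster OPC at 412 CPM. Cspg4, listed for oligodendrocyte precursors, was highest in Mural2 at 334 CPM. Mural1 also carried the endothelial genes Cldn5 at 3465 CPM and Ly6c1 at 2846 CPM, and OEC1, a cluster of olfactory ensheathing cells, carried Cldn5 at 3630 CPM. The cluster n13-AstrocyteLike, placed among neurons by the annotation, had 1659 CPM of 5 summed astrocyte markers and 2428 CPM of 7 summed neuronal markers, but also 4753 CPM of the myelin markers Mag, Mog and Mbp, nearly all of it Mbp, and 2122 CPM of Gng13, a marker of sensory neurons.

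In RefSeq (GRCm38.p6, the same build as the mm10 named in the submitters' processing notes), Atp1b1 lies on the minus strand of chromosome 1, from 164437099 to 164458355, and Atp1b3 on the minus strand of chromosome 9, from 96332655 to 96364431. Atp1b2 is a gene of chromosome 11. Because the 3 genes encode the same kind of subunit but were distributed differently over cell types, the 250 bases before the start of Atp1b1 and Atp1b3 are shown, the 2 members for which the table of promoters had an entry. For Atp1b3, which has 2 listed starts, the outer one is shown. Capitals mark matches to the GC box (GGGCGG) or the CCAAT box (CCAAT) on either strand.
Atp1b1, chr1:164458356-164458605, minus strand: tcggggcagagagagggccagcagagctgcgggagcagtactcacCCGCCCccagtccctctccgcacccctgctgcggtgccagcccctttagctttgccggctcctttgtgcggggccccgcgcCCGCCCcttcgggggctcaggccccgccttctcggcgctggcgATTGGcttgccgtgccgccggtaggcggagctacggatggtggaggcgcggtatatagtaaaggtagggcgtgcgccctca
Atp1b3, chr9:96364432-96364681, minus strand: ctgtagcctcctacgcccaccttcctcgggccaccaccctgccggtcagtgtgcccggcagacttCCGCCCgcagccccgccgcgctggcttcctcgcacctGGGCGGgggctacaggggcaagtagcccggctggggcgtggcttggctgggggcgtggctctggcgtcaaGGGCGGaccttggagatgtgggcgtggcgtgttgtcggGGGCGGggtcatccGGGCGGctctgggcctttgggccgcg

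The Atp1b1 window was 70.4% G or C and held 2 matches to the GC box and 1 to the CCAAT box, while that of Atp1b3 was 73.6% G or C and held 5 matches to the GC box and 0 to the CCAAT box. The window of the other listed start of Atp1b3 was 76.8% G or C and held 0 matches to either. Neither held TATAAA, the TATA box searched. Among all 32851 promoter windows of the same length, 32.7% held a GC box, 33.8% a CCAAT box and 12.4% TATAAA. These matches describe the letters of the windows and were not tied to the expression values.

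Atp1b1 was highest in neurons. Its mean level was 358 to 7389.5 CPM in the 18 neuronal clusters, with a median of 2021 CPM, and 105 to 608 CPM in the 22 nonneuronal clusters, with a median of 266 CPM. It was highest in n18-EPL-IN, the interneurons of the external plexiform layer, followed by the granule cell cluster n14-GC-7, the mitral and tufted cell cluster n16-M/TC-2, the granule cell cluster n07-GC-2 and the mitral and tufted cell cluster n17-M/TC-3. In n18-EPL-IN it stood at 7450 and 7383 CPM in the control libraries, 7851 and 6811 CPM in the naris occluded libraries and 7494 and 7347 CPM in the trained libraries. These values, in which the groups overlapped, lay above every value of the other clusters but 1. That was the 7638 CPM of trained replicate 2 of n16-M/TC-2, from 8 cells and 56 UMIs of Atp1b1. Over libraries, the mean in n18-EPL-IN was 7389.5 ± 336 CPM (SD, n = 6).

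The next 4 clusters lay close together. The mean was 4931 ± 796 CPM in n14-GC-7, and n16-M/TC-2 had a mean of 4687 ± 1520.0 CPM. For n07-GC-2 it was 4431 ± 573 CPM, and n17-M/TC-3 had a mean of 4063 ± 682 CPM (SD, n = 6 each). Without trained replicate 2, the mean was 4097 CPM in n16-M/TC-2, below 4371 CPM in n07-GC-2. Each step between neighbours was smaller than the larger of their SDs, while n14-GC-7 was above n17-M/TC-3 by 868 CPM, more than the larger SD, and in 5 of 6 libraries. The step from n18-EPL-IN down to n14-GC-7 exceeded that spread, with n18-EPL-IN higher in 6 of 6 libraries. Another wide step lay between n12-GC-6 at 3500.1 CPM and n10-GC-4 at 2168 CPM. Of the 39 steps along the order of 40 clusters, 7 exceeded the spread. In n14-GC-7, whose cells had a median mitochondrial share of 29.7%, the mean fell when only cells with at least 1000 UMIs were used. It was then 3308 ± 1894 CPM, below the 3449 ± 512 CPM of n17-M/TC-3 (SD), so that their order turned, within the spread.

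Among neurons, Atp1b1 was lowest in n01-OSNs, the sensory neurons of the nose, at 358 ± 91.6 CPM and in n04-Immature, the immature adult-born neurons, at 574 ± 70.7 CPM (SD, n = 6). The value in n01-OSNs was 603 CPM with mitochondrial genes left out of the total and 234 CPM in cells with at least 1000 UMIs. In n04-Immature the libraries read 682 and 521 CPM in control, 623 and 485 CPM in naris occluded and 576 and 558 CPM in trained mice. All 11 clusters that the study places downstream of n04-Immature on its 2 axes of adult-born neuron maturation had more Atp1b1 than n04-Immature in 6 of 6 libraries. The mean log2 ratio to n04-Immature ran from 0.65 ± 0.31 in the periglomerular cluster n08-PGC-3 to 3.09 ± 0.18 in n14-GC-7, and was 1.40 ± 0.10 in n06-Transition and 2.94 ± 0.18 in n07-GC-2 (SD, n = 6).

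Outside neurons Atp1b1 was found at lower levels. The 5 lowest of the 40 clusters were MicroG2 at 149 ± 41.6 CPM, MyOligo at 136 ± 48.2 CPM, the red blood cell cluster RBCs at 123 ± 46.3 CPM, MicroG1 at 122 ± 27.4 CPM and Mural1 at 105 ± 65.7 CPM (SD, n = 6), and none of the steps between them exceeded the spread. As a mean over single cells, RBCs had 199.7 CPM. The highest nonneuronal levels were 608 ± 213 CPM in the mesenchymal cluster Mes2 and 532 ± 60.4 CPM in OEC1. The 7 neuronal markers Syt1, Tubb3, Snap25, Stmn2, Gad1, Gad2 and Slc32a1 were also detected in every nonneuronal cluster, with none at 0 and a summed level of 279 to 1226 CPM, against 1133 to 8219 CPM in neuronal clusters. Mes2 had the lowest sum, 279 CPM, and its ratio of Atp1b1 to these markers was 2.29 ± 1.04, the highest of the 40 clusters, with 1.48 ± 0.25 in OEC1. In the other nonneuronal clusters, OEC2 to OEC5 included, the ratio was 0.20 to 0.97, and the range in neurons was 0.13 to 1.39. How much of the nonneuronal signal was RNA set free by neurons was not tested.

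The 5 clusters with the most Atp1b2 were of astrocytes, ensheathing cells and mural cells. Astro1 stood apart, with 1320.5 and 1386.0 CPM in control, 1430.4 and 1320 CPM in naris occluded and 1313 and 1381 CPM in trained libraries. These 6 values were above every value of any other cluster, and the groups overlapped. The mean was 1358 ± 47.9 CPM (SD, n = 6), followed by 741 ± 40.9 CPM in OEC1, 676 ± 83.6 CPM in Mural2, 652 ± 32.5 CPM in OEC2 and 623 ± 84.3 CPM in Astro3. The step from Astro1 to OEC1 exceeded the spread, while the steps between neighbours from OEC1 down to Astro3 did not. OEC1 was above OEC2 and Astro3, which are not its neighbours, by more than the larger SD. All 5 clusters of olfactory ensheathing cells, the glia that wrap axons of sensory neurons, lay between 381 and 741 CPM. The mesenchymal cluster Mes1, at 422 CPM, lay within that range.

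Not every astrocyte cluster was rich in Atp1b2. Astro2, the cluster with the most Gfap, a filament gene of astrocytes, had 278 ± 60.2 CPM (SD, n = 6), below the 319 ± 40.5 CPM of the granule cell cluster n03-GC-1, although those 2 means differed by less than the spread. The ratio of Atp1b2 to the 5 summed astrocyte markers Gfap, Aqp4, Aldoc, Slc1a3 and Slc1a2 was 0.14 ± 0.01 in Astro1, 0.10 ± 0.01 in Astro3 and 0.05 ± 0.01 in Astro2. The ratio was highest in the clusters of vessel wall cells, at 1.44 ± 0.83 in Mural1 and 1.07 ± 0.11 in Mural2, followed by 0.69 ± 0.18 in the periglomerular cluster n05-PGC-2 and 0.60 ± 0.25 in n10-GC-4. It was 0.49 ± 0.05 in OEC1.

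The 2 endothelial clusters had different levels of Atp1b2. EC1 had 43.1 ± 4.94 CPM and EC2 had 296 ± 77.9 CPM (SD, n = 6), and the lowest EC2 library, at 208 CPM, was above the highest EC1 library, at 49.7 CPM. The astrocyte markers differed alongside, with 5 of 5 detected in both clusters and a summed level of 266 to 369 CPM in the EC1 libraries and 1640 to 2279 CPM in the EC2 libraries. The ratio of Atp1b2 to these markers was 0.13 ± 0.01 in EC1 and 0.16 ± 0.03 in EC2. The summed markers of mural cells were 124 CPM in EC1 and 496 CPM in EC2. Markers of ensheathing cells were detected in EC2 as well. Fxyd1, a gene highest in the ensheathing cluster OEC1, had 56.6 ± 17.6 CPM in EC1 and 521 ± 252 CPM in EC2 (SD). The part of any of these in the difference was not tested. The mean in EC2 was 467 CPM when only cells with at least 1000 UMIs were used, and 189 CPM as a mean over single cells.

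The 5 lowest clusters for Atp1b2 were RBCs at 48.6 ± 28.7 CPM, EC1, MyOligo at 36.9 ± 22.1 CPM, MicroG2 at 32.1 ± 8.55 CPM and MicroG1 at 28.3 ± 5.35 CPM (SD, n = 6). In control libraries alone, RBCs had 27.3 CPM. Among neurons Atp1b2 ran from 54.6 ± 8.80 CPM in n04-Immature to 319 CPM in n03-GC-1. It was above n04-Immature in 6 of 6 libraries in 10 of the 11 downstream clusters, and in n12-GC-6 it was above in 4 of 6 libraries, with a mean log2 ratio of 0.20 ± 0.71. The summed astrocyte markers were 546 CPM in n04-Immature and 753 CPM in n03-GC-1. In n14-GC-7, Atp1b2 went from 235 CPM to 606 CPM when only cells with at least 1000 UMIs were used. Those cells held only 233 UMIs of the 3 genes in all. The share of Atp1b2 among these UMIs ran from 1.19% to 44.4% over libraries.

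Atp1b3 was found in many cell types at low levels and was highest in myelinating oligodendrocytes. MyOligo held 547.5 and 649 CPM in control, 611 and 563 CPM in naris occluded and 543 and 685 CPM in trained libraries, and the 3 groups overlapped. The mean was 599.7 ± 58.7 CPM (SD, n = 6), followed by 453 ± 199 CPM in n18-EPL-IN, 381 ± 53.8 CPM in the mesenchymal cluster Mes1, 211 ± 98.9 CPM in n14-GC-7 and 205 ± 51.5 CPM in n17-M/TC-3. The step from MyOligo to n18-EPL-IN was within the spread, since the 6 libraries of n18-EPL-IN, with 16 to 36 cells each, ranged from 280 to 816 CPM. Between Mes1 and n14-GC-7 the step exceeded the spread. The oligodendrocyte precursors, OPC, held 90.1 ± 10.5 CPM, and Atp1b3 was higher in MyOligo in 6 of 6 libraries, with a mean log2 ratio of 2.72 ± 0.19 (SD, n = 6). For Atp1b1 and Atp1b2 the mean log2 ratio of MyOligo to OPC was -0.91 ± 0.74 and -2.49 ± 1.01, with MyOligo higher in 1 and 0 of the 6 libraries.

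The remaining clusters of Atp1b3 ran from 173 CPM in Mes2 down to 21.3 CPM in RBCs. The 5 ensheathing clusters lay between 59.6 and 68.4 CPM and the 3 astrocyte clusters between 63.2 and 78.2 CPM, while endothelial, macrophage and microglial clusters lay between 64.2 and 154 CPM. The 5 lowest were OEC2 at 59.6 ± 10.5 CPM, n08-PGC-3 at 57.02 ± 17.4 CPM, n04-Immature at 53.3 ± 7.66 CPM, n01-OSNs at 28.1 ± 15.7 CPM and RBCs at 21.3 ± 13.4 CPM (SD, n = 6). Of the 39 steps, 3 exceeded the spread, that from n04-Immature to n01-OSNs among them. With mitochondrial genes left out of the total, these clusters had 58.5 and 47.4 CPM of Atp1b3. In n14-GC-7 the mean of Atp1b3 was 107 CPM when only cells with at least 1000 UMIs were used. Those cells held only 233 UMIs of the 3 genes in all. In RBCs, 1 control library had 0 counts of Atp1b3, and the mean of the control libraries was 10.6 CPM.

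**Figure D1:**
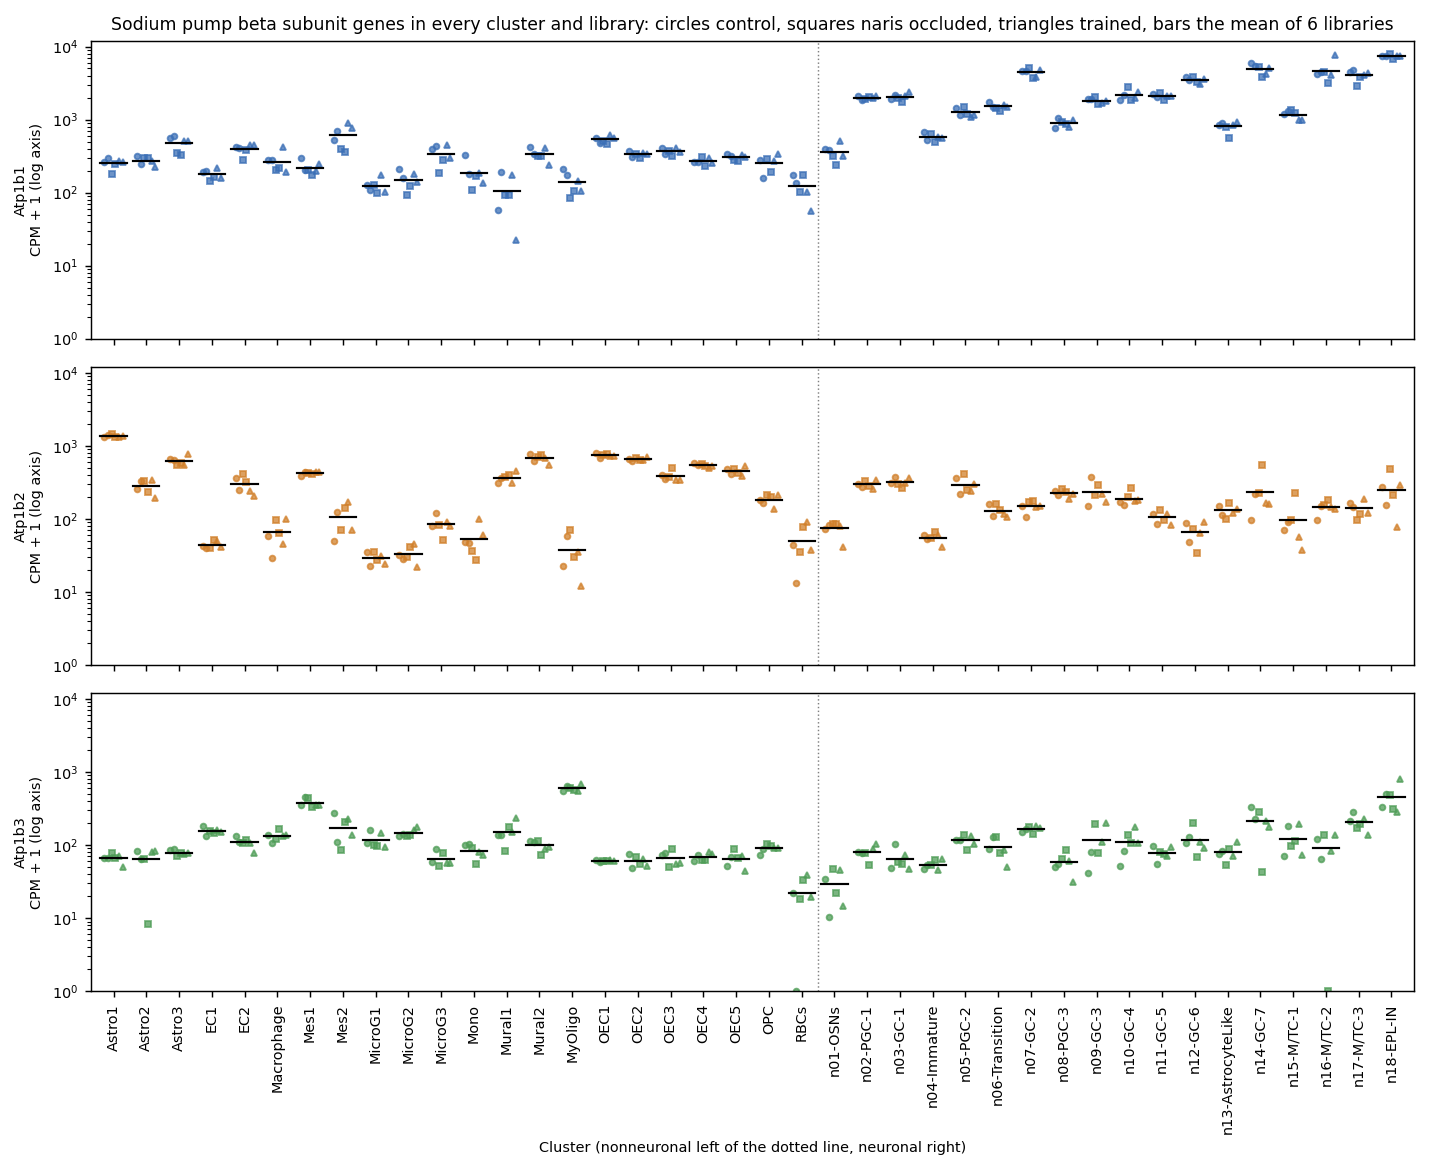
Level of Atp1b1, Atp1b2 and Atp1b3 in each of the 40 clusters, in CPM plus 1 on a log axis, with 1 point per library (circles control, squares naris occluded, triangles trained) and a bar at the mean of 6 libraries. Atp1b1 is high in most neuronal clusters, up to 7389.5 CPM in n18-EPL-IN, Atp1b2 is highest in Astro1 at 1358 CPM and Atp1b3 in MyOligo at 599.7 CPM.

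Shares of cells carrying a UMI followed the same lines. After each cell was thinned at random to 500 UMIs, 93.8% of the 161 cells of n18-EPL-IN had a UMI of Atp1b1. In n07-GC-2 it was 84.3% of the 3608 cells. The share was 6.85% of the 219 RBCs, taken here as a reference level. The unthinned shares in n18-EPL-IN and RBCs were 99.4% and 31.1%, at medians of 813 and 3894 UMIs per cell. For Atp1b2 the thinned share was 47.8% in Astro1 and 2.74% in RBCs (85.05% and 11.4% unthinned), and for Atp1b3 it was 26.6% in MyOligo (79.8% unthinned). For Atp1b3 in RBCs it was 0 of 219 cells, which allows a share of up to 1.37% from counting alone, and 8.22% unthinned. The thinned shares of Atp1b1 were 6.46% in MicroG1, 5.83% in MyOligo and 3.16% in Mural1, which is below the level in RBCs and is not read as expression here, and 7.04% in MicroG2. These shares come from a single draw, and their differences from RBCs were not tested. The hemoglobin genes Hba-a1 and Hbb-bs stood at 199183 and 390434 CPM in RBCs, which leaves less of the 500 UMIs for other RNA. A share just above that in RBCs, as in MicroG2, is therefore not read as expression either. For Atp1b2 the shares in MyOligo, MicroG2, MicroG1, EC1 and the monocyte cluster Mono, at 1.28% to 2.73%, were also below that in RBCs. In n15-M/TC-1 the thinned share for Atp1b2 was 0 of 90 cells, which allows up to 3.33% from counting alone. Before thinning, every library of n15-M/TC-1 held counts of Atp1b2, with a mean of 95.5 CPM, so this 0 is not read as absence.

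Within a cluster, the 3 counts were compared as shares of their sum, which is possible because each UMI stands for 1 molecule, although the genes may differ in how well they are captured. Atp1b1 led in all 18 neuronal clusters in 6 of 6 libraries, with 75.5% of the sum in n05-PGC-2 to 95.1% in n12-GC-6. Atp1b2 led in 9 nonneuronal clusters beyond the spread, with 81.1 ± 1.94% in Astro1, 60.8 ± 3.14% in Mural2 and 41.4 ± 2.85% in Mes1 (SD, n = 6). In Mes1 it led in 4 of 6 libraries, and in cells with at least 1000 UMIs its lead was within the spread. The 9 were Astro1, Astro3, Mes1, Mural1, Mural2, OEC1, OEC2, OEC4 and OEC5. Atp1b3 led beyond the spread in MyOligo alone, with 77.7 ± 5.53%. Atp1b1 led beyond the spread in 8 nonneuronal clusters. In 1 of them, EC2, the lead turned when only cells with at least 1000 UMIs were used, from 49.9 ± 9.24% Atp1b1 and 36.7 ± 8.55% Atp1b2 to 38.6 ± 6.56% and 53.2 ± 3.48%, while in the other 39 clusters the leading gene was the same. In Astro2, OEC3, MicroG1 and MicroG2 the leading gene was ahead of the next by less than the spread. In OEC3 the lead of Atp1b2 exceeded the spread in cells with at least 1000 UMIs, at 52.8 ± 3.15% against 38.9 ± 3.999% Atp1b1. In RBCs Atp1b1 took 64.4 ± 16.9% of the sum (SD, n = 6), where it took 59.2% to 69.3% in the whole libraries. The share in RBCs rested on 173 UMIs and ran from 44.4% to 91.7% over libraries.

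**Figure D2:**
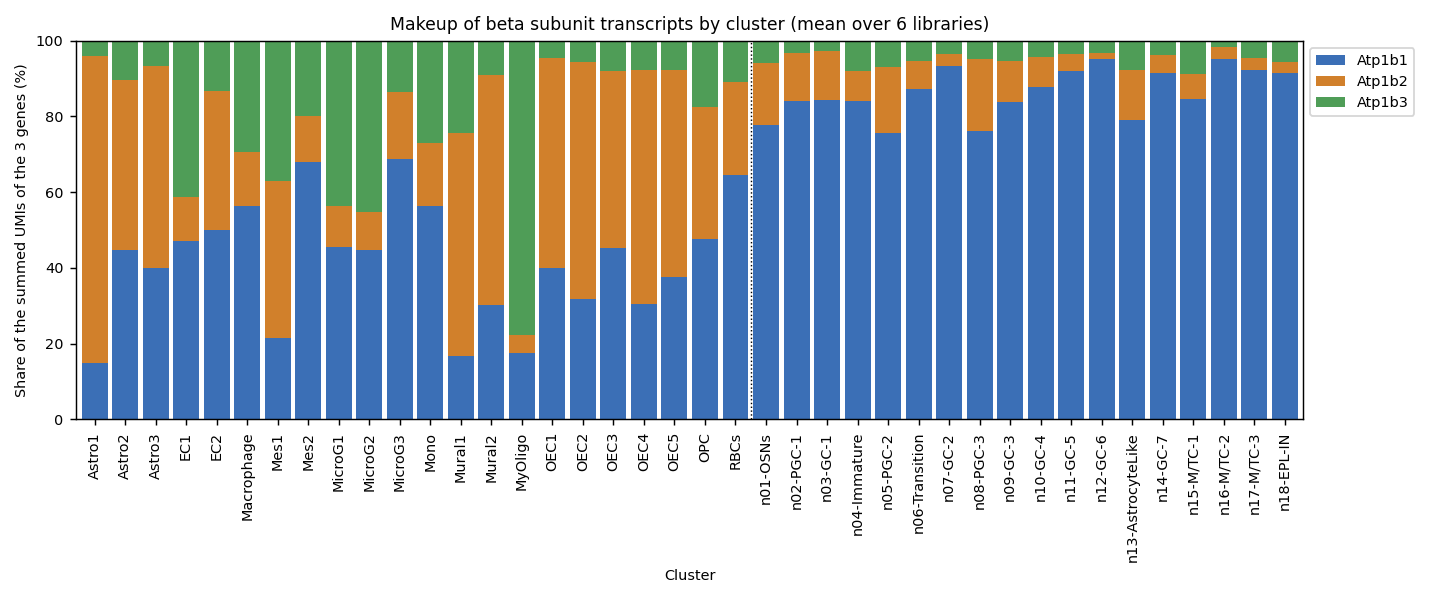
Share of Atp1b1, Atp1b2 and Atp1b3 in their summed UMIs in each cluster, in percent, as stacked bars of the mean over 6 libraries. Atp1b1 takes at least 75.5% in every neuronal cluster, while the share of Atp1b2 reaches 81.1% in Astro1 and that of Atp1b3 77.7% in MyOligo.

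The 3 members differed in their patterns. Over the 40 clusters, the Pearson correlation of mean log2(CPM + 1) was 0.20 between Atp1b1 and Atp1b3, 0.12 between Atp1b1 and Atp1b2 and -0.12 between Atp1b2 and Atp1b3. Clusters share libraries and free RNA and are not independent, so these values are a description. By the same measure, each member was compared with 9209 genes that reached 50 CPM in at least 1 cluster.

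The genes most like Atp1b1 were C1qtnf4 (r = 0.944), Lrp11 (0.942), Syp (0.939), Tmem130 (0.933) and Caly (0.930). Syp encodes synaptophysin, a protein of synaptic vesicles. For Atp1b2 they were Sparcl1 (r = 0.845), Spry2 (0.818), Clcn2 (0.799), Sdc2 (0.788) and Dbp (0.770). Sparcl1 encodes the secreted protein hevin, Clcn2 a chloride channel, and Dbp a transcription factor with a daily rhythm. For Atp1b3 they were App (r = 0.761), Ccdc47 (0.744), Hsp90b1 (0.711), Reep5 (0.709) and Tgoln1 (0.703). App encodes the amyloid precursor protein and Hsp90b1 a chaperone of the endoplasmic reticulum. With a pseudocount of 10 CPM, 5, 4 and 3 of the 5 genes named for Atp1b1, Atp1b2 and Atp1b3 were again among the 5 most alike, and with Spearman's correlation 3, 3 and 1 were.

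The other genes of the pump and of ion gradients had their highest means in various clusters, not always beyond the spread. Of 25 genes listed, 21 were in the count table, and Atp1a4, Atp4b, Atp12a and Atp1b4 were not analysed here. Among the FXYD regulators, Fxyd1 was highest in OEC1 at 3527 CPM and Fxyd5 in Mes2 at 1838 CPM. Fxyd6 was highest in OEC2 at 770.5 CPM and Fxyd7 in n17-M/TC-3 at 195 CPM. For these last genes the next clusters, OEC4 at 721 CPM and OEC2 at 164 CPM, were within the spread. Fxyd2, Fxyd3 and Fxyd4 stayed at or below 36.7 CPM, with their highest means in n16-M/TC-2, OEC1 and n06-Transition, each within the spread of the next. That of Fxyd2 was 36.7 ± 61.2 CPM, beside 36.2 ± 33.7 CPM in Macrophage. Of the NKAIN genes, whose proteins bind beta subunits, Nkain4 was highest in Astro2 at 681 CPM, with Astro1 at 649.5 CPM within the spread. Nkain2 was highest in MyOligo at 75.7 CPM, and Nkain1 peaked in MyOligo at 13.2 CPM. The highest mean of Nkain3, in n18-EPL-IN, came from 2 UMIs of 1 library, and the next was 13.1 ± 6.22 CPM in OPC.

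Transporters that run on the sodium and potassium gradients were also spread by cell type. Slc12a5, which encodes the neuronal potassium chloride cotransporter KCC2, was highest in n17-M/TC-3 at 652 CPM. Its step to the next cluster, n18-EPL-IN at 571 CPM, was within the spread. The sodium-driven relative Slc12a2 was highest in MyOligo at 527 CPM, the cluster where Atp1b3 was highest. Slc12a4 peaked in Astro1 at 92.6 CPM and Slc12a7 in Mes2 at 104 CPM. The potassium channel genes Kcnj10 and Kcnj16 were highest in Astro1 at 396 CPM and in OEC1 at 152 CPM. For Kcnj16 the next cluster, Astro1 at 127 CPM, was within the spread. The sodium calcium exchangers Slc8a1, Slc8a2 and Slc8a3 had their highest means in n09-GC-3, n18-EPL-IN and n07-GC-2, at 56.2, 55.7 and 32.6 CPM. For each of them the next cluster was within the spread. The value of Slc8a2 came from 8 UMIs in 3 of 6 libraries. Atp4a, of the proton pump of the stomach, reached no more than 3.96 CPM.

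The comparisons between conditions asked whether these genes differed within a cell type after 6 weeks of occlusion, or of training with water deprivation. They were made in the 34 clusters with at least 20 cells in every library, with edgeR's quasi-likelihood test on summed counts and Benjamini-Hochberg adjustment over all genes of the cluster at 0.05. Too few cells were left in n18-EPL-IN, n16-M/TC-2, n15-M/TC-1, n08-PGC-3, Mural1 and RBCs. Atp1b1 and Atp1b2 passed edgeR's filter on low counts in all 34 clusters and Atp1b3 in 31, giving 99 pairs of gene and cluster in each comparison. With 2 libraries per group, each a pool of mice, the p-values measure the spread between pools.

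In naris occluded against control mice, 1 of the 99 pairs passed the test, the lower Atp1b1 of MyOligo. Over all genes and clusters of this comparison, 0.0624% of 172986 pairs were called, and in MyOligo 0.0759% of 6587 genes. The thinned share of MyOligo cells with a UMI of Atp1b1 was below that in RBCs. Atp1b1 in MyOligo stood at 209 and 174 CPM in control, 83.0 and 105 CPM in naris occluded and 143 and 104 CPM in trained libraries. Both naris occluded libraries were below both control libraries, while the trained library at 104 CPM lay within the naris occluded range. The log2 fold change was -1.02 with a standard error of 0.20 and a 95% interval from -1.43 to -0.61 (edgeR's quasi-likelihood test, adjusted p = 0.0396). The counts behind it were 126 and 82 UMIs in control and 48 and 66 UMIs in naris occluded libraries.

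The call was lost under 5 of 14 alternatives, while the log2 fold change stayed between -1.23 and -0.84 in all of them. Adjusted over all genes of all clusters together, edgeR's p was 0.0553, and the adjusted p ranged from 9.4e-05 to 1.00 over the alternatives. Without control replicate 1 the log2 fold change was -0.89 (edgeR, adjusted p = 0.847), and without naris occluded replicate 1 it was -0.84 (edgeR, adjusted p = 0.178). The sum of the 7 neuronal markers in MyOligo was also lower in naris occluded than in control libraries. In trained libraries that sum was above control, while Atp1b1 was below control. All 7 were detected, their sum was 361 to 493 CPM in control, 318 to 324 CPM in naris occluded and 502 to 565 CPM in trained libraries, and 6 of the 7 had a lower mean in naris occluded than in control libraries. Their part in the result was not tested.

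**Figure D3:**
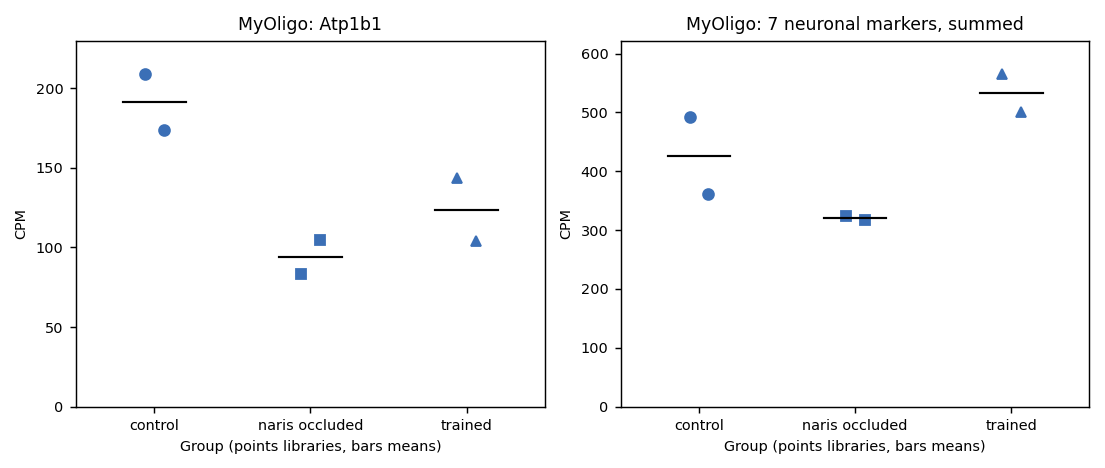
Atp1b1 (left) and the sum of 7 neuronal markers (right) in MyOligo, in CPM, with 1 point per library and a bar at the mean of the 2 libraries of each group. Naris occluded libraries are lowest in the right panel and, with 1 trained library at 104 CPM beside them, in the left one, while the trained libraries are highest for the neuronal markers, at 502 and 565 CPM.

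Most other clusters had lower Atp1b1 point estimates in naris occluded mice, without passing the test. The fitted log2 fold change was below 0 in 29 of 34 clusters, with a median of -0.28, whereas the median over all genes was between -0.01 and 0.02 in every cluster. It was below 0 in 17 of 20 nonneuronal clusters, with a median of -0.33, and in 12 of 14 neuronal clusters, with a median of -0.15. All clusters come from the same libraries and share free RNA, so these counts are not independent observations. How many other genes had the same sign in as many clusters was not counted. Without adjustment, 9 of the 34 values of Atp1b1 had p under 0.05, beside 4.78% of all 172986 pairs of gene and cluster. In 19 of the 20 nonneuronal clusters the summed neuronal markers were also lower in naris occluded libraries, with a median log2 ratio of -0.43, and these included all 17 with a lower Atp1b1. Their part in the lower values was not tested.

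After MyOligo, the lowest of these estimates were in the microglial cluster MicroG3, Mono, Astro3, MicroG2 and Mes2, from -0.86 to -0.72. In Astro3 the means were 575 CPM in control and 336 CPM in naris occluded libraries, with a log2 fold change of -0.83 ± 0.22 (SE, edgeR, adjusted p = 0.471). In MicroG2 they were 183 and 105 CPM, with -0.78 ± 0.20 (SE, edgeR, adjusted p = 0.360). In the cluster with the most cells among the high neuronal ones, n07-GC-2, the libraries read 4573 and 4680 CPM in control and 5131 and 3676 CPM in naris occluded mice, so that the groups overlapped. In n17-M/TC-3 they read 4494 and 4806 CPM in control and 2863 and 3800.2 CPM in naris occluded mice, which did not overlap (edgeR, adjusted p = 0.278). Both naris occluded libraries were below both controls in n14-GC-7 as well. The groups were apart, in either direction, in 5 of 14 neuronal and 13 of 20 nonneuronal clusters. For the other pump and ion gradient genes they were apart in 26 of 75 neuronal and 75 of 137 nonneuronal pairs. The share over all genes was not counted, so these counts are not read as a result about Atp1b1. In whole libraries Atp1b1 was 1013 and 889 CPM in control, 899.9 and 685 CPM in naris occluded and 956 and 899.0 CPM in trained mice. The lowest of these, naris occluded replicate 2, also had the lowest share of cells in n07-GC-2, n14-GC-7 and n18-EPL-IN, 4.63% against 8.49% to 10.5% in the others.

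Atp1b2 and Atp1b3 gave no call in naris occluded against control mice by edgeR at adjusted p of 0.05, with 2 of 34 and 1 of 31 clusters at unadjusted p under 0.05. Fitted log2 fold changes of Atp1b2 ran from -0.68 in n17-M/TC-3 to 1.32 in n14-GC-7, with a median of 0.09. The value in n14-GC-7 came from 13 and 18 UMIs in control and 8 and 13 UMIs in naris occluded libraries. For Atp1b3 they ran from -0.63 in n14-GC-7 to 1.13 in n09-GC-3, with a median of -0.09. In Astro1, where counts of Atp1b2 were highest, the groups overlapped. By DESeq2's Wald test, 0 of the 99 pairs of the 3 members were called and 7 had p under 0.05 before adjustment, beside 0.678% of all pairs, against 12 by edgeR.

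In trained against control mice, edgeR called 0 of 99 pairs, beside 0.0931% of all genes and clusters, and 2 pairs had p under 0.05 before adjustment, beside 5.74% of all pairs. DESeq2 also called 0 and had 1 pair with unadjusted p under 0.05, beside 0.972% of all pairs. Those by edgeR were Atp1b1 in MyOligo, at -0.64 ± 0.21 (SE, adjusted p = 0.569), and Atp1b3 in n06-Transition, at -0.68 ± 0.30 (SE, adjusted p = 0.893). Medians over clusters were -0.08 for Atp1b1, -0.03 for Atp1b2 and -0.01 for Atp1b3. A p that misses the threshold does not show that training left these genes alone, since the 95% interval of the log2 fold change was wider than 1 in 49 of the 99 pairs, with a median width of 0.985.

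In trained against naris occluded mice, edgeR called 0 of 99 pairs, beside 0.178% of all genes and clusters, with 13 pairs at unadjusted p under 0.05, beside 7.26% of all pairs, and DESeq2 called 0, with 4, beside 1.52% of all pairs. Atp1b1 had higher point estimates in trained libraries in 28 of 34 clusters, with a median log2 fold change of 0.22. These were 19 of 20 nonneuronal clusters, with a median of 0.30, and 9 of 14 neuronal clusters, with a median of 0.01. The summed neuronal markers were also higher in trained libraries in 20 of the 20 nonneuronal clusters, with a median log2 ratio of 0.41, and their part in the higher values was not tested. The widest was 1.16 ± 0.30 in Mes2 (SE, edgeR, adjusted p = 0.450), where libraries read 394 and 362 CPM in naris occluded and 889 and 770.0 CPM in trained mice and did not overlap. This comparison shares its naris occluded libraries with the one against control. Its clusters also share libraries, so the counts of clusters are not independent observations here either.

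**Figure D4:**
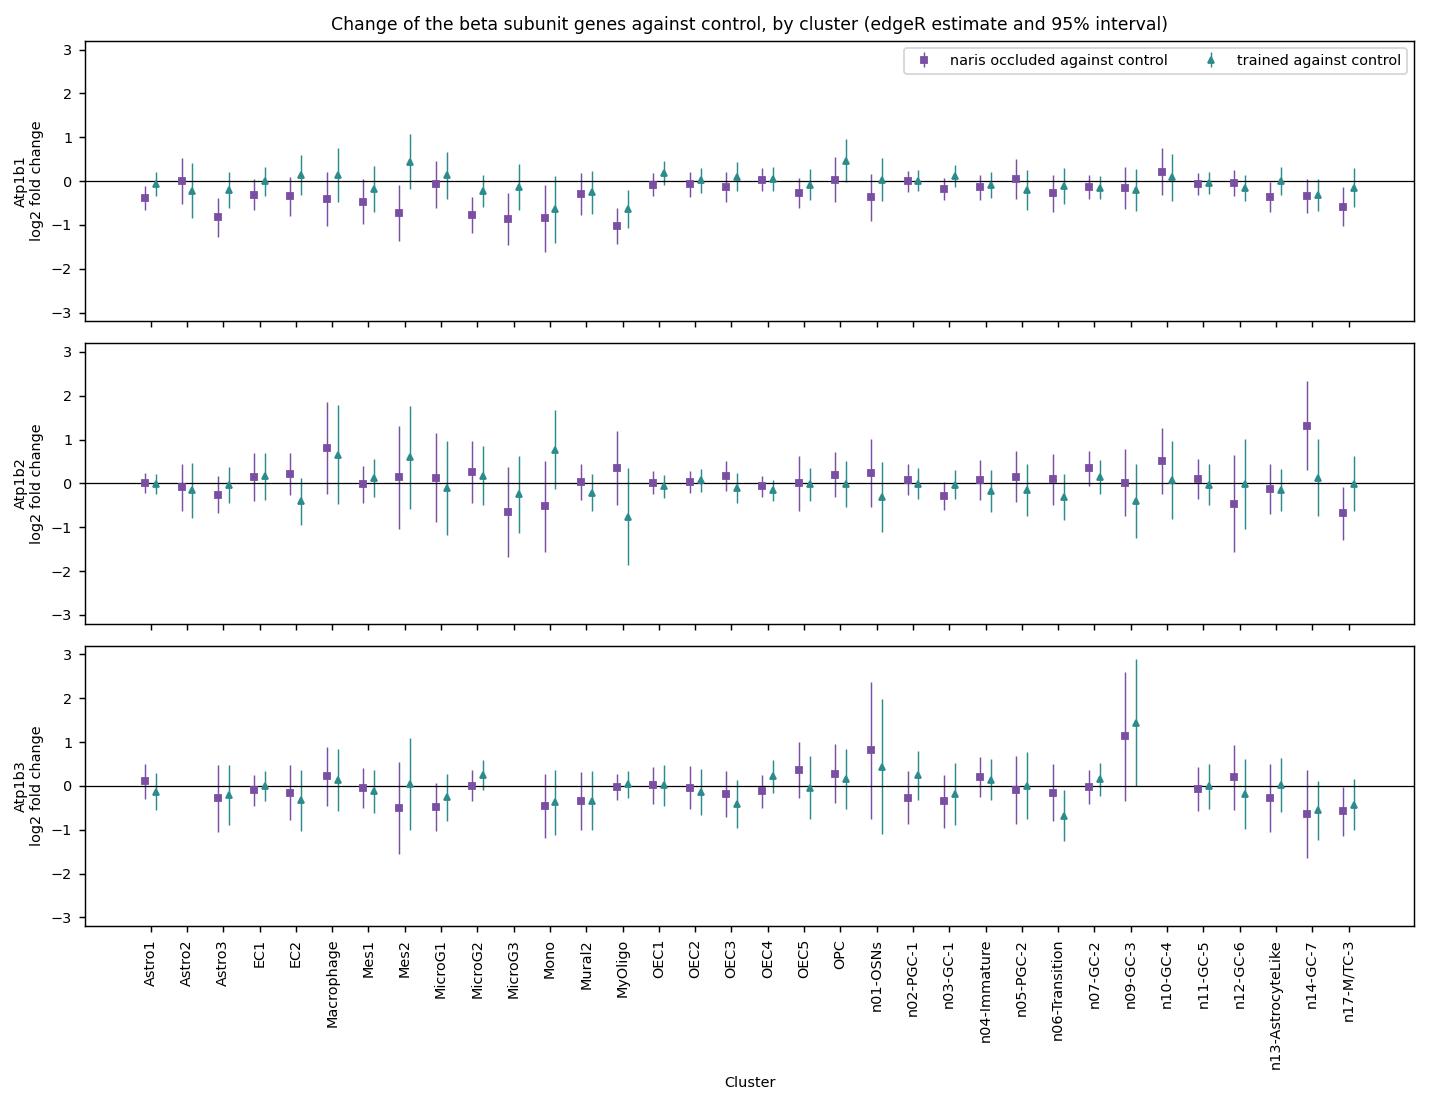
Log2 fold change of Atp1b1, Atp1b2 and Atp1b3 against control in the 34 clusters tested, for naris occluded (squares) and trained (triangles) mice, with 95% intervals from edgeR. Squares of Atp1b1 lie below 0 in 29 of 34 clusters, with the lowest at -1.02 in MyOligo. The clusters share their libraries and are not independent.

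Of the other pump and ion gradient genes, 212 pairs of gene and cluster were tested in each comparison. EdgeR called 0 in naris occluded and 0 in trained mice against control, with 30 and 26 at unadjusted p under 0.05, beside 4.78% and 5.74% of all pairs, and DESeq2 called 0 in both, with 11 and 4, beside 0.678% and 0.972%. In trained against naris occluded mice edgeR had 48 of the 212 at unadjusted p under 0.05, beside 7.26% of all pairs (17 by DESeq2, beside 1.52%), and called 2, both Fxyd1, which encodes phospholemman, an inhibitor of the pump. DESeq2 called neither, with adjusted p of 0.208 in EC2 and 1.00 in n02-PGC-1, and called Fxyd1 in OEC1 instead, at a log2 fold change of -0.47 ± 0.11 (SE, DESeq2, adjusted p = 0.0324), where edgeR gave an adjusted p of 0.0684. In EC2, Fxyd1 stood at 561 and 294 CPM in control, 728 and 894 CPM in naris occluded and 276 and 372 CPM in trained libraries, and both trained libraries were below both naris occluded ones. The log2 fold change of Fxyd1 was -1.34 ± 0.24 (SE, edgeR, adjusted p = 0.000726), where 0.685% of 4085 genes of EC2 were called. In n02-PGC-1 Fxyd1 stood at 38.7 and 36.3 CPM in control, 125 and 79.7 CPM in naris occluded and 32.3 and 34.4 CPM in trained libraries, from 9 to 41 UMIs a library, with -1.66 ± 0.35 (SE, edgeR, adjusted p = 0.0332), where 0.223% of 5829 genes were called.

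Fxyd1 was highest in ensheathing cells, whose markers were summed in the same clusters. The markers differed widely in level. Npy reached 20739 CPM in OEC4, beside 1733 CPM of Frzb there, and Sox10 was highest in OPC at 412 CPM. The summed level of Sox10, Frzb and Npy in EC2 was 2736 to 2923 CPM in control, 3775 to 5245 CPM in naris occluded and 2753 to 2929 CPM in trained libraries, with 3 of 3 detected. In n02-PGC-1 it was 196 to 299.5 CPM in control, 310.1 to 316 CPM in naris occluded and 302 to 329 CPM in trained libraries, so that trained and naris occluded libraries overlapped there. Their part in the values of Fxyd1 was not tested. Without trained replicate 1 the log2 fold change of Fxyd1 was -1.12 in EC2 (edgeR, adjusted p = 0.0634) and -1.64 in n02-PGC-1 (edgeR, adjusted p = 0.194), and without naris occluded replicate 1 it was -1.28 in n02-PGC-1 (edgeR, adjusted p = 0.499).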

How the data were processed

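The authors deposited whole-number UMI counts per gene and cell for 6 libraries, made per the submitters' processing notes with Cell Ranger 2.0.0, Seurat 2.2.1 and mm10. The counts held no blank or total entries. The authors also deposited, for each cell, its library, its cluster and the fraction of its UMIs from mitochondrial genes. Cells with few genes, and doublets, had been removed by the authors, and no further doublet removal or correction for free RNA was made. Of 52549 barcodes, 51426 had an annotation. Nonneuronal clusters came from the annotation of the whole bulb and neuronal ones from that of neurons, which left out 755 neurons. The cluster names are those of the deposited annotation, with the cluster named by a Greek letter called Macrophage. Their numbering differs from the study's for some nonneuronal clusters, so the same name can stand for different cells there.

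Libraries were taken from the library column of the annotation, since the name starts of 17275 cells of the trained libraries were swapped against it. Counts of Xist, Ddx3y and Eif2s3y fitted the sex given for every library taken this way.

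Counts were summed per cluster and library. Differences between conditions were tested with edgeR 4.0.16 (R 4.3.3; TMM, filterByExpr, quasi-likelihood test, two-sided) in 1 fit per cluster over 6 libraries, called at an adjusted p of 0.05 over the genes of that cluster. DESeq2 1.42.0 was an alternative. Libraries are the unit, each 1 pool of mice, and p-values measure the spread between pools, which differ in sex within each group.

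Cells were thinned in a single random draw to 500 UMIs for shares of cells with a UMI. Limits for 0 counts (3 cells) cover counting error only. Ratios to marker genes and the log2 ratios between clusters were taken within each library, the latter with 1 CPM added. A step between neighbouring clusters exceeded the spread where the means differed by more than the larger of their SDs.

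The 3 genes, the gene lists and the tests were chosen with earlier results of these data known. Named beside them were the 5 genes most like each by Pearson correlation of mean log2(CPM + 1) over clusters, among genes with at least 50 CPM in 1 cluster, the 5 highest and 5 lowest clusters of each, and pump and ion gradient genes past the test. Some genes of the lists are not reported here and were left out of the list counts, marker sums and likeness ranks. Astro3, MicroG2, Mes2, EC1, EC2 and other clusters described beyond that were chosen after their values were seen. Alternatives were the replicate number as a block, other scaling, filters on genes and cells, adjustment over all clusters, and leaving out each library.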

Additional observations from a re-analysis of the deposited data

How the results depend on the processing

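Over 4 alternatives (mitochondrial genes left out of the total, means over single cells, cells with at least 1000 UMIs, control libraries only), the order of the 40 clusters had a Spearman correlation of at least 0.929 with that reported, and n18-EPL-IN, Astro1 and MyOligo remained the highest for Atp1b1, Atp1b2 and Atp1b3. The lowest cluster changed to MicroG1 for Atp1b1 and RBCs for Atp1b2 in control libraries, and to n01-OSNs for Atp1b3 with means over single cells. Of 480 levels under these alternatives, 17 differed from the reported one by over 1.5 times, in 14 of 120 pairs of gene and cluster. The widest rise was that of Atp1b2 in n14-GC-7, from 235 to 606 CPM in cells with at least 1000 UMIs. Those cells held only 233 UMIs of the 3 genes in all. Atp1b1 in n01-OSNs went from 358 to 603 CPM without mitochondrial genes. With mitochondrial genes left out of the total, Atp1b1 in n18-EPL-IN was 8852 CPM and Atp1b2 in Astro1 1539.5 CPM. The share of Atp1b3 in MyOligo was 72.05% in control libraries.

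Calls between conditions were few and moved with the settings. In naris occluded against control mice, the 1 call among 99 pairs became 0 with DESeq2, 0 with cells of at least 1000 UMIs (75 pairs), 0 with p adjusted over all clusters, and 2 with no filter on low counts (102 pairs), which added Atp1b1 in MicroG2. The log2 fold change of Atp1b1 in MyOligo was -1.02, -1.07 and -1.02 where the call was lost to these settings. Leaving out each library in turn gave 0 to 3 calls: 0 without control replicate 1, 2 without trained replicate 1 or 2, which added Atp1b1 in MicroG2, and 3 without naris occluded replicate 2, which added Atp1b1 in MicroG2 and n17-M/TC-3. Without naris occluded replicate 1 the 1 call was Atp1b1 in n13-AstrocyteLike (edgeR, adjusted p = 0.0369) in place of MyOligo. In trained against naris occluded mice the count ran from 0 to 1, with Atp1b1 in n13-AstrocyteLike called without naris occluded replicate 1 and Atp1b2 in MyOligo without naris occluded replicate 2. Trained against control gave 0 in all. The cause of these changes was not tested. The call of Fxyd1 held in 11 of 13 alternatives in EC2, and was lost with DESeq2 (log2 fold change -1.32) and without trained replicate 1 (-1.12). In n02-PGC-1 it held in 11 of 14, and was lost with DESeq2 (-1.65), without naris occluded replicate 1 (-1.28) and without trained replicate 1 (-1.64). The replicate number as a block left the counts at 1, 0 and 0 and changed no other call. Libraries with the same number, which share the sex of their mice, were not treated as pairs in the main fit. The median correlation of their deviations over 34 clusters was 0.0983, 0.098 and 0.0644, and passed 0.1 in 16, 17 and 7 clusters. Counting noise in low counts can hold such correlations down, so these values do not show that an effect of sex was absent. With 2 libraries a group, the width of the intervals limits what can be said of a pair that was not called.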
